A study of Homo sapiens with 8 samples.

Results

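The USP deubiquitinases are the genes whose symbol is USP followed by a number and, in some cases, an X, leaving out the USP17L copies and pseudogenes. Of 61533 gene identifiers in the count tables, 51 carried such a symbol. RNA was measured in 2 human squamous carcinoma lines, CAL27, from a carcinoma of the tongue, and A431, from an epidermoid carcinoma of skin. Each line received an inhibitor labelled NEDD8i or its solvent DMSO for 16 h, which gave 4 groups of 2 libraries: CAL27 NEDD8i, CAL27 DMSO, A431 NEDD8i and A431 DMSO. The labels give no alleles, dose or compound name, and each line descends from a single tumour. Nothing states that the paired libraries were grown as separate cultures. P-values therefore measure the spread between these libraries, which may be technical.

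USP enzymes are cysteine proteases that cut ubiquitin, a small protein tag, from other proteins or from ubiquitin chains, and so oppose the ligases that attach it. Many ligases are built on cullins, which are switched on when the ubiquitin-like protein NEDD8 is joined to them. Different USPs are known for work on histones, DNA repair, p53, the proteasome, receptors on endosomes, and ISG15, another ubiquitin-like protein.

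The libraries held 49037868 to 62509817 counts, of which USP genes took 0.277% to 0.3%. Levels are given as CPM, counts scaled by library size and TMM factors, and 3 counts in a library are 0.048 to 0.0612 CPM before the TMM step. All 8 squamous epithelial markers checked had counts, summing to 14054 to 14616 CPM in CAL27 NEDD8i, 13545 to 13591 in CAL27 DMSO, 9343 to 9649 in A431 NEDD8i and 8658 to 8688 in A431 DMSO. These markers moved in both directions under NEDD8i, with 4 higher and 4 lower in CAL27 and 4 higher and 2 lower in A431. TP63, a transcription factor of squamous cells, had 123 and 109 CPM in CAL27 NEDD8i against 522 and 529 in CAL27 DMSO, and 261 and 269 in A431 NEDD8i against 279 and 288 in A431 DMSO. KRT17, a keratin, had 2769 and 2875 CPM in CAL27 NEDD8i against 1141 and 1154 in CAL27 DMSO, and 456 and 413 in A431 NEDD8i against 246 and 230.3 in A431 DMSO. TP63 was lower in CAL27 and KRT17 higher in both lines. The 6 fibroblast markers summed to 6.49 to 10.8 CPM in CAL27 NEDD8i, 20.8 to 24.1 in CAL27 DMSO, 17.6 to 18.4 in A431 NEDD8i and 35.4 to 39 in A431 DMSO. The 4 endothelial markers, 3 of them with counts, summed to 10.3 to 10.7 CPM in CAL27 NEDD8i, 5.95 to 6.63 in CAL27 DMSO, 5.22 to 5.56 in A431 NEDD8i and 19.6 to 21.9 in A431 DMSO. The part of all these markers in the results was not tested. The immune marker PTPRC and the endothelial marker KDR were at 0 in every library, and the whole immune list summed to at most 0.167 CPM. That sum is a weak check for the immune markers CD68 and LYZ. Exons of other genes cover 100% of the exonic bases of CD68 and 96.6% of the last 500 of LYZ. Reads over several genes were dropped, so both could hardly gain counts. Of the genes of the inhibited pathway, UBE2M, the E2 enzyme for NEDD8, rose in both lines (log2 change 0.72 ± 0.06 in CAL27 and 0.79 ± 0.06 in A431). NEDD8 rose by 0.41 ± 0.07 in CAL27 and stood at 0.11 ± 0.07 in A431. The NEDD8 E1 subunit NAE1 stood at -0.01 ± 0.06 in CAL27 and rose by 0.69 ± 0.06 in A431, and its catalytic partner UBA3 stood at -0.02 and -0.09. The mitochondrial share of counts was 1.45% and 1.02% in CAL27 NEDD8i against 1.77% and 1.56% in CAL27 DMSO, and 1.96% and 2.27% in A431 NEDD8i against 2.69% and 3.15% in A431 DMSO. Its part in the results was not tested.

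Of the 51 USP genes, 46 had enough counts to be tested, and 39 averaged at least 10 CPM over the 4 groups. The highest by CPM was USP9X, a very large enzyme acting on receptor and survival pathways, with an average of 237 CPM. Levels of different genes are compared per kb of exonic length, although the kit reads 3′ ends and its counts need not grow with length, so both orders are given. Per kb, USP5, which takes apart free ubiquitin chains, came first at 67.5 ± 2.33 CPM per kb in CAL27 NEDD8i, 62.6 ± 1.13 in CAL27 DMSO, 66.5 ± 2.29 in A431 NEDD8i and 57.5 ± 2.16 in A431 DMSO (SD, n = 2 each). USP10, a partner of the stress granule protein G3BP1 that also acts on p53, came next per kb. It was followed by USP14, a protease bound to the proteasome, USP1, which removes ubiquitin from FANCD2 and PCNA, and USP39, a splicing factor. By CPM those genes ranked 4 (USP5), 5 (USP10), 2 (USP14), 6 (USP1) and 9 (USP39), and USP9X ranked 9 per kb. USP5 had 208 and 219 CPM in CAL27 NEDD8i against 201 and 196 in CAL27 DMSO, and 216 and 205 in A431 NEDD8i against 187 and 177 in A431 DMSO. USP10 had 163 and 157 CPM in CAL27 NEDD8i against 150.0 and 144 in CAL27 DMSO, and 218 and 213 in A431 NEDD8i against 183 and 193 in A431 DMSO. USP39 had 127 and 124 CPM in CAL27 NEDD8i against 90.9 and 91.6 in CAL27 DMSO, and 94.4 and 95.1 in A431 NEDD8i against 90.5 and 81.4 in A431 DMSO. For USP5, USP10 and USP39 the inhibitor libraries were above the solvent libraries in both lines, without overlap. The change did not pass an adjusted p of 0.05 for USP5 in CAL27 (edgeR adjusted p = 0.0778) or USP39 in A431 (edgeR adjusted p = 0.0665).

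USP26, USP29 and USP50 were at 0 in all 8 libraries. For USP26 and USP29 this allows at most the level of 3 counts given above. For USP50, 55.2% of the last 500 exonic bases lie in exons of USP8 on the other strand. Reads over both genes were dropped, so its 0 gives no such bound. USP41 and USP44 were too low to test. USP41 was highest at 0.484 CPM, in CAL27 DMSO replicate 2, and USP44 at 0.635 CPM, in CAL27 NEDD8i replicate 2. USP41 is a near-identical copy of USP18, and reads that matched both were not counted, so the level of either is uncertain.

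NEDD8i was accompanied by rises and falls of USP transcripts in both lines, with a partly shared set of genes. In CAL27, 15 USP genes rose and 13 fell of 46 tested (edgeR quasi-likelihood test, adjusted p under 0.05), or 60.9%. Of all 18738 genes tested, 49.6% were called there, 23.2% higher and 26.4% lower. In A431, 17 rose and 7 fell, or 52.2%, beside 43.6% of all genes, 22.5% higher and 21.1% lower. The median log2 change of the USP genes was -0.03 in CAL27 and 0.16 in A431, against -0.04 and -0.01 for all genes tested. Many changes were small. The median absolute log2 change of the USP genes was 0.27 in CAL27 and 0.24 in A431. For all genes tested it was 0.57 and 0.48. Of the 46 USP genes tested, 8 in CAL27 and 4 in A431 were called with a change of at least 1.5-fold. The shares of all genes tested were 30.5% in CAL27 and 23% in A431. In these bulk libraries a change in RNA per cell and a change in the mix of cells cannot be told apart.

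**Figure D1:**
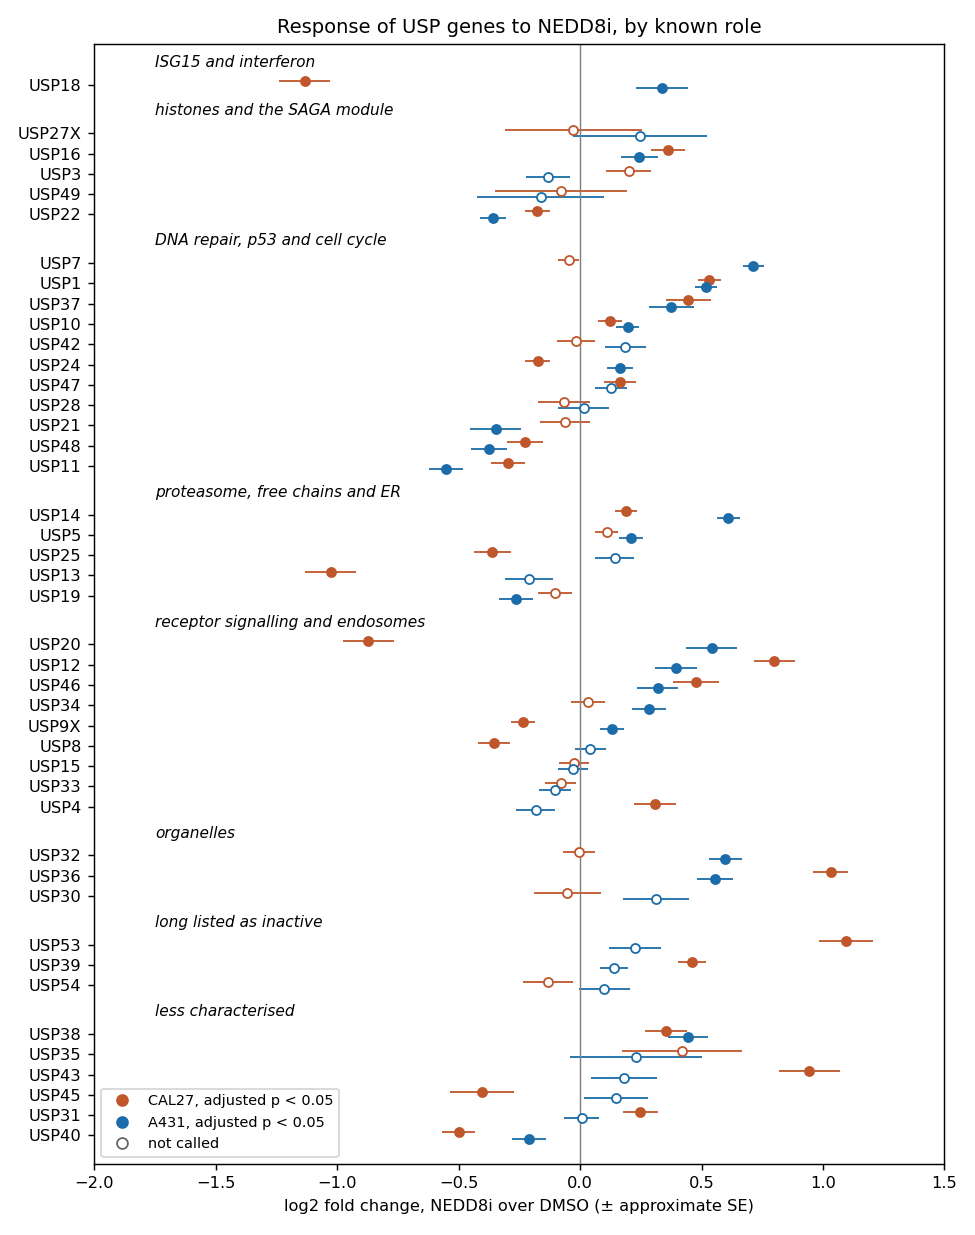
Log2 fold change of NEDD8i over DMSO for the 43 USP genes that averaged at least 1 CPM in both lines, grouped by known role, in CAL27 (orange) and A431 (blue), with bars of approximate SE. Filled points passed an adjusted p of 0.05. USP7 stood at -0.05 in CAL27 and 0.71 in A431, USP1 at 0.53 and 0.52, and USP18 at -1.13 and 0.34.

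A total of 9 USP genes rose in both lines: USP1, USP10, USP12, USP14, USP16, USP36, USP37, USP38 and USP46. They were 9 of the 46 USP genes tested, beside 2488 of all 18738 genes tested, or 13.3%. By line, they were 9 of the 15 that rose in CAL27, beside 2488 of 4348 for all genes. In A431 they were 9 of the 17 that rose, beside 2488 of 4224. The 5 of 46 that fell in both lines were USP11, USP22, USP40, USP48 and USP51, beside 12.8% of all genes. Another 4 of the 46 were called in opposite directions, each lower in CAL27 and higher in A431 (USP9X, USP18, USP20 and USP24). Of all 18738 genes tested, 616 had that pattern, and 4.99% were called in opposite directions either way. CAL27, but not A431, had calls for USP4, USP31, USP39, USP43, USP47 and USP53, which rose, and USP8, USP13, USP25 and USP45, which fell. A431, but not CAL27, had calls for USP5, USP7, USP32 and USP34, which rose, and USP19 and USP21, which fell. Among the genes called in CAL27 or A431 alone, the test of the line difference below did not call USP5, USP19, USP21, USP31, USP34 and USP47. Neither line had a call for USP2, USP3, USP6, USP15, USP27X, USP28, USP30, USP33, USP35, USP42, USP49 and USP54.

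Promoters of USP1, USP14, USP36 and USP20 are shown as 1 example for each motif searched, picked after their values were seen among the USP genes called in both lines. Other genes called in both lines also had a match, such as USP38 and USP11. Each window holds 250 bases before and 50 after a RefSeq transcript start (GRCh38.p14), 5′ to 3′ on the gene's strand, with all matches to the 4 motifs in capitals (a motif or its reverse complement). A window was on hand for 39 of the 51 genes. The USP1 window at chr1:62436145-62436444 (plus strand) holds the letters of an E2F-type core, TTTGGCG, and 2 matches to a CCAAT box. The USP14 window at chr18:158307-158606 (plus) holds an antioxidant response element core, TGACNNNGC. The USP36 window at chr17:78840765-78841064 (minus) holds an E-box, CACGTG, and the USP20 window at chr9:129835208-129835507 (plus) holds a CCAAT box. USP1 and USP36 each have a further window in the table, with none of these letters.
USP1: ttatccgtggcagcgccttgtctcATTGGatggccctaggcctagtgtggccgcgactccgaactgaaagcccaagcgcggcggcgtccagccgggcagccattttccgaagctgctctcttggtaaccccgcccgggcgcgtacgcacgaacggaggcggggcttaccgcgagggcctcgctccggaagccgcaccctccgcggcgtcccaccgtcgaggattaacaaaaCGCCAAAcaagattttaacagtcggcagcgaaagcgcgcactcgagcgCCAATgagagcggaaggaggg
USP14: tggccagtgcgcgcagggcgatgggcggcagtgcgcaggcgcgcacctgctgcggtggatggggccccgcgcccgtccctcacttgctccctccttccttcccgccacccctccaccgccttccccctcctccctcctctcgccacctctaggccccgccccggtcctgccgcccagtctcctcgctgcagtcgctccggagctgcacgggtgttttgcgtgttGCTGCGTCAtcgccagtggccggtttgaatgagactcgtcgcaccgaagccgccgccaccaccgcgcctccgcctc
USP36: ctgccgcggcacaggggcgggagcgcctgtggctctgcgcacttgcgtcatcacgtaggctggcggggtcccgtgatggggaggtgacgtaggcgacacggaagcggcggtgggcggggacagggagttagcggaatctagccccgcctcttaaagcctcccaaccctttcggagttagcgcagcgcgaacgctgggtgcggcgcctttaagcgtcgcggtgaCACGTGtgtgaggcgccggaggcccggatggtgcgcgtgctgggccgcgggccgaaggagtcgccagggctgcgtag
USP20: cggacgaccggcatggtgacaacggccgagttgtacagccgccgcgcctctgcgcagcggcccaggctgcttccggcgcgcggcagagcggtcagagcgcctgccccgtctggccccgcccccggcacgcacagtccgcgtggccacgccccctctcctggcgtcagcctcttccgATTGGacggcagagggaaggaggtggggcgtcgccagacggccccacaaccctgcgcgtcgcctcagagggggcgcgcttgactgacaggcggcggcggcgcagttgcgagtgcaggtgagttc

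Searched on both strands, TGACNNNGC was found in 5 of the 39 genes with a window (USP2, USP13, USP14, USP38 and USP54), or 12.8%, beside 16.1% of all 27305 genes in the promoter table. TTTGGCG was found in USP1, or 2.56%, beside 2.32% of all genes. CACGTG was found in USP6, USP28, USP32 and USP36, or 10.3%, beside 8.77%, and CCAAT in 12 genes, or 30.8%, beside 39.7%. A match is a string of letters and not a bound site.

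Among enzymes of DNA repair, p53 and the cell cycle, 4 of 11 tested rose and 3 fell in CAL27, and 5 rose and 3 fell in A431. Calls made up 63.6% and 72.7% of the group, beside 49.6% and 43.6% of all genes tested. USP7 (chromosome 16, 8892097 to 8975328, GRCh38) acts on both p53 and its ligase MDM2. USP7 had 168 and 162 CPM in CAL27 NEDD8i against 169.7 and 171 in CAL27 DMSO, and 350.5 and 358 in A431 NEDD8i against 215 and 217 in A431 DMSO. The A431 inhibitor libraries stood above all 6 others. The log2 change was -0.05 ± 0.04 in CAL27 and 0.71 ± 0.04 in A431 (edgeR adjusted p = 0.419 and 5.44e-10), where ± is the approximate SE, the change divided by the square root of its F statistic. The CAL27 change minus the A431 change was -0.76 ± 0.06 (edgeR adjusted p = 4.88e-08). GMPS, a metabolic enzyme bound by USP7, rose by 0.18 ± 0.04 in CAL27 and 0.51 ± 0.04 in A431, and the transcripts of p53 and MDM2 stood at -1.80 ± 0.06 in CAL27 and -0.96 ± 0.06 in A431, and at 0.28 ± 0.07 in CAL27 and 0.77 ± 0.07 in A431, all called.

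USP1 (chromosome 1, 62436304 to 62451804, GRCh38) rose in both lines. USP1 had 155 and 153 CPM in CAL27 NEDD8i against 107 and 106 in CAL27 DMSO, and 246 and 249 in A431 NEDD8i against 169 and 177 in A431 DMSO. The inhibitor libraries lay above the solvent libraries of their line. The log2 changes were 0.53 ± 0.05 in CAL27 and 0.52 ± 0.05 in A431 (edgeR adjusted p = 4.58e-08 and 8.09e-08), and their difference was 0.01 ± 0.07 (edgeR adjusted p = 0.946). WDR48, the subunit that activates USP1, USP12 and USP46, stood at 0.08 ± 0.11 in CAL27 and -0.25 ± 0.10 in A431, neither called. Of the proteins that USP1 works on, the transcript of FANCD2 fell in both lines (-0.55 ± 0.08 in CAL27 and -0.46 ± 0.08 in A431) and that of PCNA rose in both (0.57 ± 0.04 in CAL27 and 0.20 ± 0.04 in A431).

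USP11, a relative of USP4 and USP15 linked to repair of DNA breaks, fell in both lines. USP11 had 57.5 and 51.9 CPM in CAL27 NEDD8i against 67.4 and 66.9 in CAL27 DMSO, and 55.6 and 51.3 in A431 NEDD8i against 79.9 and 76.6 in A431 DMSO. The inhibitor libraries were lower in each line, with log2 changes of -0.30 ± 0.07 in CAL27 and -0.55 ± 0.07 in A431 (edgeR adjusted p = 0.00158 and 4.12e-06). USP48, which acts on histone H2A, fell by 0.23 ± 0.07 in CAL27 and 0.37 ± 0.07 in A431, and its CAL27 call was lost without either CAL27 DMSO library or CAL27 NEDD8i replicate 1 (0.0623 to 0.182). USP37, known for stabilising cyclin A, rose by 0.45 ± 0.09 in CAL27 and 0.37 ± 0.09 in A431. Its last 500 exonic bases, where the kit reads, lie wholly within exons of VIL1 on the other strand, and its A431 call was lost without A431 NEDD8i replicate 1 (0.0597). USP10 rose by 0.12 ± 0.05 in CAL27 and 0.20 ± 0.05 in A431. The CAL27 call of USP10 was lost without CAL27 NEDD8i replicate 1, CAL27 DMSO replicate 2 or either A431 NEDD8i library (0.0645 to 0.19), and with no filter on low counts (0.0563).

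Smaller changes filled the rest of this group. USP24 stood at -0.17 ± 0.05 in CAL27 and 0.16 ± 0.05 in A431, both called. The CAL27 call was lost without CAL27 DMSO replicate 1 (0.0583) or 2 (0.107), and the A431 call without either A431 NEDD8i library or A431 DMSO replicate 2 (0.0588 to 0.0844). USP21, a histone H2A deubiquitinase, stood at -0.06 ± 0.10 in CAL27 and fell by 0.35 ± 0.10 in A431, a call lost without replicate 1 of either A431 group (0.101 and 0.123). USP47, which acts on DNA polymerase beta, rose by 0.17 ± 0.07 in CAL27, with an adjusted p of 0.0452 by edgeR, and the call was lost without any of the 4 CAL27 libraries or either A431 NEDD8i library (0.0526 to 0.164), and with no filter on low counts (0.0701). Its last 500 exonic bases lie within another gene, DKK3. USP28, which works with p53BP1 and on MYC, stood at -0.07 ± 0.11 in CAL27 and 0.02 ± 0.11 in A431, and USP42 at -0.02 ± 0.08 in CAL27 and 0.19 ± 0.08 in A431, with no call.

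Of 5 enzymes of the proteasome, free chains and endoplasmic reticulum, 1 rose and 2 fell in CAL27, and 2 rose and 1 fell in A431. That is 60% in each line, beside 49.6% of all genes in CAL27 and 43.6% in A431. USP14 (chromosome 18, 158383 to 214629, GRCh38) trims chains from proteins at the proteasome. USP14 had 283 and 286 CPM in CAL27 NEDD8i against 252 and 247 in CAL27 DMSO, and 229.9 and 232 in A431 NEDD8i against 157 and 146 in A431 DMSO. The inhibitor libraries were higher without overlap in both lines, by 0.19 ± 0.05 in CAL27 and 0.61 ± 0.05 in A431 (edgeR adjusted p = 0.0025 and 1.01e-08). The difference between the lines was -0.42 ± 0.07 (edgeR adjusted p = 7.25e-05). PSMD14, a deubiquitinase of another family and a subunit of the proteasome, rose by 0.50 ± 0.04 in CAL27 and 0.70 ± 0.04 in A431. UCHL5, a further deubiquitinase of that particle, stood at 0.08 ± 0.05 in CAL27 and rose by 0.27 ± 0.05 in A431.

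USP13, the closest relative of USP5, fell in CAL27. USP13 had 10.1 and 9.89 CPM in CAL27 NEDD8i against 20.9 and 19.8 in CAL27 DMSO, and 21.2 and 20.4 in A431 NEDD8i against 24.4 and 23.6 in A431 DMSO. The CAL27 inhibitor libraries stood below all others. The log2 changes were -1.03 ± 0.10 in CAL27 and -0.21 ± 0.10 in A431 (edgeR adjusted p = 1.98e-07 and 0.1), and the difference was -0.82 ± 0.14 (edgeR adjusted p = 0.000235). USP5 stood at 0.11 ± 0.05 in CAL27 and rose by 0.21 ± 0.05 in A431. USP19, of which some forms sit in the membrane of the endoplasmic reticulum, stood at -0.10 ± 0.07 in CAL27 and fell by 0.26 ± 0.07 in A431. USP25, which also acts in that compartment, fell by 0.36 ± 0.08 in CAL27 and stood at 0.14 ± 0.08 in A431.

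In the group that acts on receptors, signalling and endosomes, 3 of 11 rose and 3 fell in CAL27, and 5 rose in A431. These are 54.5% and 45.5% of the group, near the shares of all genes tested, 49.6% and 43.6%. USP20 (chromosome 9, 129835458 to 129881828, GRCh38), known for deubiquitinating the beta-2 adrenergic receptor, changed in opposite directions in the lines. USP20 had 12.1 and 12.5 CPM in CAL27 NEDD8i against 22.8 and 22.2 in CAL27 DMSO, and 22.4 and 20.6 in A431 NEDD8i against 15.1 and 14.5 in A431 DMSO. In both lines the groups were apart, with the inhibitor libraries lower in CAL27 and higher in A431. The log2 changes were -0.87 ± 0.11 in CAL27 and 0.54 ± 0.11 in A431 (edgeR adjusted p = 1.86e-06 and 0.000384), and their difference was -1.41 ± 0.15 (edgeR adjusted p = 9.89e-07). USP33, the closest relative of USP20, stood at -0.08 ± 0.06 in CAL27 and -0.10 ± 0.06 in A431, neither called.

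USP12 and USP46, close relatives that share the activators WDR48 and WDR20, rose in both lines. USP12 is on chromosome 13, 27066156 to 27171811, GRCh38. USP12 had 72.2 and 64.8 CPM in CAL27 NEDD8i against 39.8 and 38.9 in CAL27 DMSO, and 39.7 and 39.8 in A431 NEDD8i against 27.7 and 32.7 in A431 DMSO. USP46 had 16.7 and 15.2 CPM in CAL27 NEDD8i against 12.4 and 10.6 in CAL27 DMSO, and 66.1 and 65.9 in A431 NEDD8i against 52.3 and 53.4 in A431 DMSO. For both genes the inhibitor libraries were above their solvent libraries. The changes of USP12 were 0.80 ± 0.08 in CAL27 and 0.40 ± 0.09 in A431 (edgeR adjusted p = 3.58e-07 and 0.00115), and those of USP46 were 0.48 ± 0.09 in CAL27 and 0.32 ± 0.08 in A431 (edgeR adjusted p = 0.000363 and 0.00474). The difference between the lines for USP12 was 0.40 ± 0.12 (edgeR adjusted p = 0.0152). It was lost without CAL27 NEDD8i replicate 1, CAL27 DMSO replicate 2 or A431 DMSO replicate 2 (0.0541 to 0.073).

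USP9X and USP8 were lower in CAL27 under the inhibitor. USP9X had 164 and 169 CPM in CAL27 NEDD8i against 204 and 187 in CAL27 DMSO, and 308 and 306 in A431 NEDD8i against 274 and 286 in A431 DMSO. The groups did not overlap, and the changes were -0.23 ± 0.05 in CAL27 and 0.13 ± 0.05 in A431 (edgeR adjusted p = 0.000715 and 0.0386). The CAL27 call was lost without CAL27 DMSO replicate 1 (0.0529). The A431 call was lost without A431 DMSO replicate 1 or either A431 NEDD8i library (0.117 to 0.189), and with a minimum of 1 CPM (0.0559). USP8, which acts on EGFR at endosomes, fell by 0.35 ± 0.07 in CAL27 and stood at 0.04 ± 0.06 in A431. STAM, its endosomal partner, rose by 1.16 ± 0.10 in CAL27 and 0.82 ± 0.09 in A431.

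USP4, a deubiquitinase of the TGF-beta receptor, rose in CAL27 where its relative USP11 fell. USP4 had 16.1 and 16.1 CPM in CAL27 NEDD8i against 13.4 and 12.7 in CAL27 DMSO, and 44.8 and 46.4 in A431 NEDD8i against 52.6 and 51 in A431 DMSO. The inhibitor libraries were higher in CAL27 and lower in A431. The changes were 0.31 ± 0.09 in CAL27 and -0.18 ± 0.08 in A431 (edgeR adjusted p = 0.00646 and 0.0739), and the difference of 0.49 ± 0.12 was called (edgeR adjusted p = 0.00328). USP15, the third of these relatives, stood at -0.03 ± 0.06 in CAL27 and -0.03 ± 0.06 in A431. USP34, which acts on axin in WNT signalling, stood at 0.03 ± 0.07 in CAL27 and rose by 0.28 ± 0.07 in A431, a call lost without A431 DMSO replicate 1 (0.0545). The last 500 exonic bases of USP34 lie within exons of AHSA2P. USP2 and USP6 were under 1 CPM in every library.

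Of the USPs placed at organelles, USP36 rose in both lines. USP36 (chromosome 17, 78795652 to 78840887, GRCh38) is the nucleolar USP and also stabilises MYC. USP36 had 98.1 and 88 CPM in CAL27 NEDD8i against 44.2 and 46.8 in CAL27 DMSO, and 57.6 and 56.1 in A431 NEDD8i against 40.5 and 36.9 in A431 DMSO. All inhibitor libraries were above all solvent libraries. The log2 changes were 1.03 ± 0.07 in CAL27 and 0.55 ± 0.07 in A431 (edgeR adjusted p = 2.27e-09 and 9.15e-06), and their difference was 0.48 ± 0.10 (edgeR adjusted p = 0.00163). USP32 is a membrane USP of the Golgi and endosomes. USP32 had 58.8 and 60.3 CPM in CAL27 NEDD8i against 59.6 and 59.9 in CAL27 DMSO, and 59.1 and 62 in A431 NEDD8i against 41 and 38.9 in A431 DMSO. The A431 solvent libraries stood below the other 6. The changes were 0.00 ± 0.07 in CAL27 and 0.60 ± 0.07 in A431 (edgeR adjusted p = 0.974 and 1.04e-06), with a difference of -0.60 ± 0.09 (edgeR adjusted p = 6.83e-05). USP30, the mitochondrial USP that opposes Parkin, was not called (-0.05 ± 0.14 in CAL27 and 0.31 ± 0.14 in A431).

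USP18 (chromosome 22, 18150170 to 18177397, GRCh38), which cuts ISG15 rather than ubiquitin and restrains the interferon receptor, also changed in opposite directions. USP18 had 12 and 12 CPM in CAL27 NEDD8i against 25.5 and 27 in CAL27 DMSO, and 16.4 and 16.5 in A431 NEDD8i against 13 and 13 in A431 DMSO. The groups were apart in both lines, and the libraries of a group lay close together. The changes were -1.13 ± 0.11 in CAL27 and 0.34 ± 0.11 in A431 (edgeR adjusted p = 7.23e-08 and 0.0158), with a difference of -1.47 ± 0.15 (edgeR adjusted p = 6.68e-07). The A431 call was lost without A431 NEDD8i replicate 1 (0.0556) or 2 (0.0621) or A431 DMSO replicate 2 (0.0539). ISG15 and its E1 and E2 enzymes fell in both lines. ISG15 itself stood at -1.19 ± 0.11 in CAL27 and -1.25 ± 0.12 in A431, the E2 enzyme UBE2L6 at -1.77 ± 0.06 in CAL27 and -0.79 ± 0.05 in A431, and the E1 enzyme UBA7 at -2.95 ± 0.18 in CAL27 and -1.80 ± 0.15 in A431. STAT2, which brings USP18 to the interferon receptor, fell by 0.36 ± 0.07 in CAL27 and 0.70 ± 0.07 in A431.

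Of 6 tested enzymes of histones and the SAGA complex, 1 rose and 2 fell in each line. This share of 50% was near those of all genes, 49.6% in CAL27 and 43.6% in A431. It leaves out USP21 and USP48, which also act on histone H2A but were counted with DNA repair, p53 and the cell cycle above. USP16, which acts on histone H2A, rose in both. USP16 had 59.9 and 61.1 CPM in CAL27 NEDD8i against 47.4 and 46.7 in CAL27 DMSO, and 27.1 and 26.9 in A431 NEDD8i against 22.9 and 22.8 in A431 DMSO. The groups were apart, with changes of 0.36 ± 0.07 in CAL27 and 0.24 ± 0.08 in A431 (edgeR adjusted p = 0.000358 and 0.0147). Its A431 call was lost without either A431 NEDD8i library or A431 DMSO replicate 2 (0.0503 to 0.0613). USP45, the relative of USP16, fell in CAL27. USP45 had 8.49 and 9.17 CPM in CAL27 NEDD8i against 11.4 and 11.9 in CAL27 DMSO, and 14 and 12.4 in A431 NEDD8i against 11.5 and 12.3 in A431 DMSO. The inhibitor libraries were lower in CAL27 and higher in A431, with changes of -0.40 ± 0.13 in CAL27 and 0.15 ± 0.13 in A431 (edgeR adjusted p = 0.0169 and 0.393). The CAL27 call of USP45 was lost without CAL27 NEDD8i replicate 1 or either CAL27 DMSO library (0.0588 to 0.108).

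USP22, the SAGA subunit that cuts ubiquitin from histone H2B, fell by 0.18 ± 0.05 in CAL27 and 0.36 ± 0.05 in A431. The CAL27 call was lost without replicate 2 of CAL27 NEDD8i (0.116) or of CAL27 DMSO (0.177), and 58.2% of the last 500 exonic bases of USP22 lie in exons of other genes. ATXN7L3 and ENY2, the partners it needs, rose in CAL27 by 0.50 ± 0.06 and 0.42 ± 0.06 and stood at 0.07 ± 0.06 and -0.15 ± 0.07 in A431. USP51 (chromosome X, 55484616 to 55489848, GRCh38) uses the same partners. USP51 had 0 counts in both CAL27 NEDD8i libraries against 0.111 and 0.151 CPM in CAL27 DMSO, and 2.21 and 1.89 CPM in A431 NEDD8i against 3.96 and 5.02 in A431 DMSO. The inhibitor libraries were lower in both lines. In CAL27 its 0 counts under NEDD8i faced 16 under DMSO over both libraries, and both mates of a read pair were counted, so no fold is given. In A431 it fell by 1.13 ± 0.35 (edgeR adjusted p = 0.0144), a call lost without replicate 2 of A431 NEDD8i (0.0902) or of A431 DMSO (0.125). USP3, USP27X and USP49 were not called in either line.

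The USPs long listed as inactive had 3 tested genes, of which 2 were called, both higher in CAL27 (66.7%, beside 49.6% of all genes there). USP53 (chromosome 4, 119212713 to 119295518, GRCh38) is found at tight junctions. USP53 had 25.6 and 28.4 CPM in CAL27 NEDD8i against 13.7 and 11.6 in CAL27 DMSO, and 30.3 and 32.7 in A431 NEDD8i against 25 and 28.8 in A431 DMSO. The CAL27 solvent libraries stood below the other 6. The changes were 1.09 ± 0.11 in CAL27 and 0.23 ± 0.11 in A431 (edgeR adjusted p = 2.26e-07 and 0.102), with a difference of 0.87 ± 0.15 (edgeR adjusted p = 0.00026). USP39 rose by 0.46 ± 0.06 in CAL27 and stood at 0.14 ± 0.06 in A431, and USP54 stood at -0.13 ± 0.10 in CAL27 and 0.10 ± 0.10 in A431.

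Of 6 tested genes whose substrates are less well described, 3 rose and 2 fell in CAL27, and 1 rose and 1 fell in A431. Beside 49.6% and 43.6% of all genes, these were 83.3% and 33.3%. USP43 had 31.5 and 27 CPM in CAL27 NEDD8i against 14.5 and 15.8 in CAL27 DMSO, and 8.71 and 9.36 in A431 NEDD8i against 7.19 and 8.77 in A431 DMSO. The groups were apart in CAL27 and overlapped in A431, with changes of 0.94 ± 0.13 in CAL27 and 0.18 ± 0.14 in A431 (edgeR adjusted p = 5.73e-06 and 0.31) and a difference of 0.76 ± 0.18 (edgeR adjusted p = 0.00364). USP38 had 27.5 and 27.8 CPM in CAL27 NEDD8i against 20.8 and 22.5 in CAL27 DMSO, and 59.4 and 52.4 in A431 NEDD8i against 40.4 and 41.7 in A431 DMSO. USP38 rose without overlap in both lines, by 0.35 ± 0.09 in CAL27 and 0.44 ± 0.08 in A431 (edgeR adjusted p = 0.00232 and 0.000273). USP40 had 45.3 and 47.7 CPM in CAL27 NEDD8i against 64.5 and 67.1 in CAL27 DMSO, and 48.9 and 48.1 in A431 NEDD8i against 53.8 and 58.3 in A431 DMSO. USP40 fell, with changes of -0.50 ± 0.07 in CAL27 and -0.21 ± 0.07 in A431 (edgeR adjusted p = 8.61e-06 and 0.0214), and its A431 call was lost without either A431 NEDD8i library or A431 DMSO replicate 2 (0.0671 to 0.168). USP31 rose by 0.25 ± 0.07 in CAL27, with its last 500 exonic bases inside other genes. USP35, a relative of USP38, was not called.

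**Figure D2:**
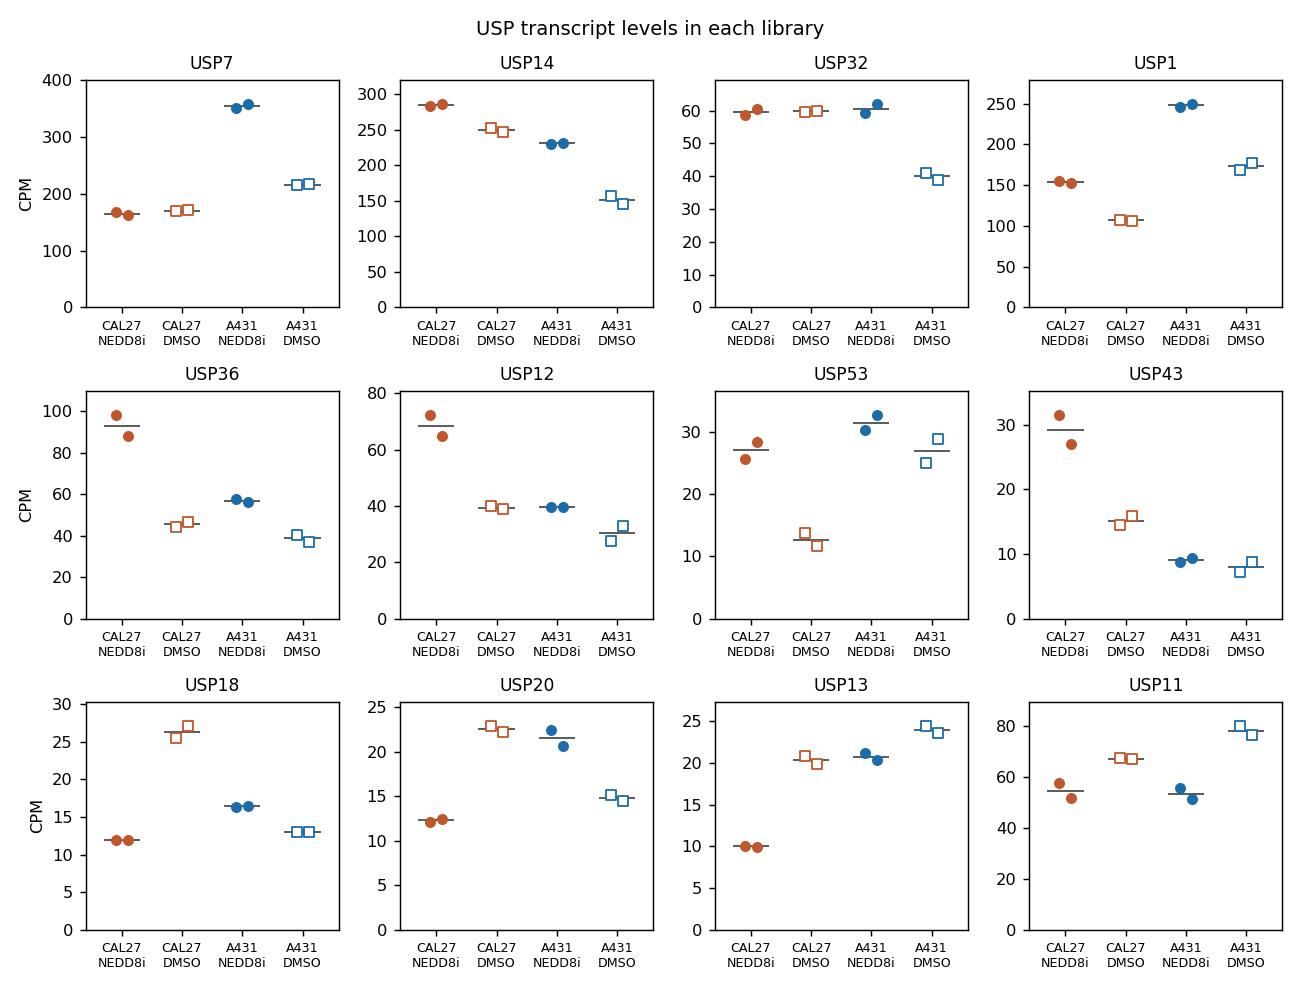
CPM in each of the 8 libraries for 12 USP genes, with NEDD8i libraries as filled circles, DMSO libraries as open squares, and the group mean as a line. Each panel starts at 0 CPM; USP53 and USP13 differed between treatments in CAL27, USP7 and USP32 in A431, USP1 and USP36 in both, and USP18 and USP20 in opposite directions.

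The test of the line difference itself (CAL27 change minus A431 change) called 19 of the 46 USP genes, 6 higher and 13 lower, or 41.3%, beside 34% of all genes tested, 14.2% higher and 19.8% lower. Of the 46 tested, 8 were called with a difference of at least 1.5-fold, beside 3797 of all 18738 genes tested, or 20.3%. The genes with a higher change in CAL27 were USP53, USP43, USP4, USP36, USP12 and USP39 (0.32 ± 0.08). Those with a lower change in CAL27 were USP51, USP18, USP20, USP13, USP7, USP32, USP14 and 6 others. The others were USP45 (-0.55 ± 0.19), USP25 (-0.50 ± 0.11), USP8 (-0.40 ± 0.09), USP9X (-0.37 ± 0.07), USP24 (-0.34 ± 0.07) and USP40 (-0.29 ± 0.10). The call of USP40 was lost without CAL27 NEDD8i replicate 1, A431 DMSO replicate 1 or either library of CAL27 DMSO or A431 NEDD8i (0.0597 to 0.135). It was also lost with DESeq2 (0.0697) and with RLE size factors (0.055). That of USP45 was lost without CAL27 NEDD8i replicate 1, either CAL27 DMSO library or replicate 1 of A431 NEDD8i or A431 DMSO (0.0653 to 0.116), and with DESeq2 (0.0659). The fitted difference of USP51, -4.77, rests on the CAL27 group at 0 and is no bound, and its call was lost without CAL27 NEDD8i replicate 1 (0.0549) or 2 (0.0664).

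**Figure D3:**
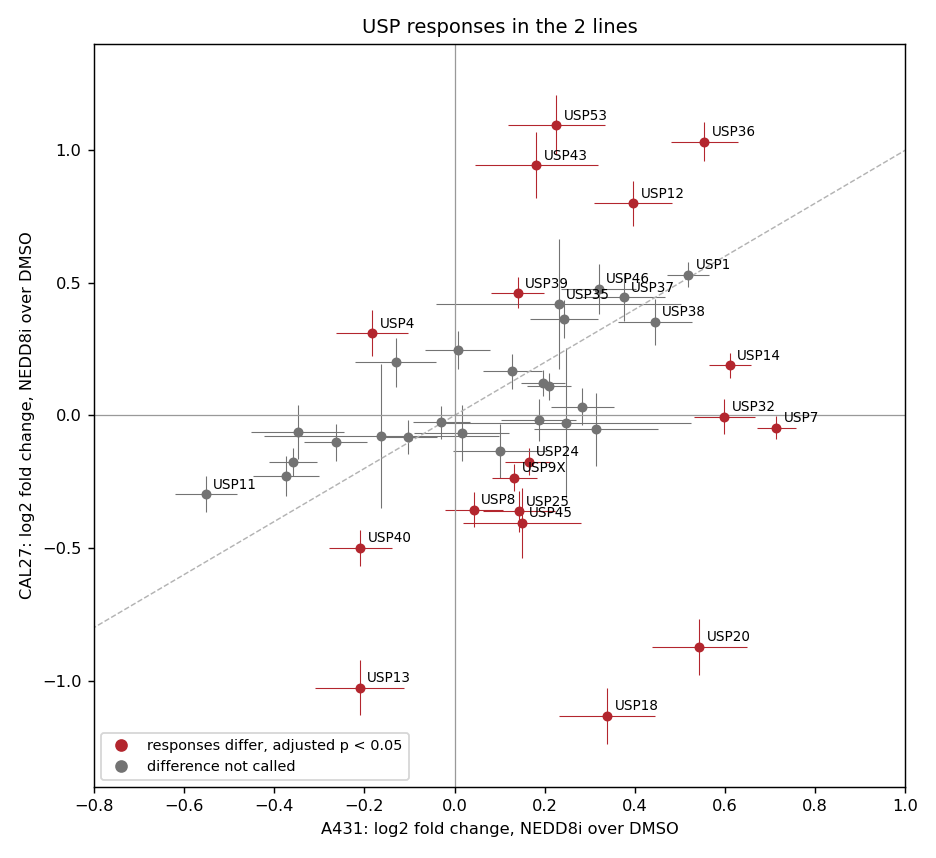
Log2 fold change of NEDD8i over DMSO in CAL27 (vertical axis) against that in A431 (horizontal axis) for 43 USP genes, with bars of approximate SE. Red points are genes whose changes differed between the lines at an adjusted p of 0.05; USP36, USP12 and USP1 lie up and to the right, USP11 lies down and to the left, and USP18 and USP20 lie at -1.13 and -0.87 in CAL27 but 0.34 and 0.54 in A431.

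The USP genes include 25 pairs of close relatives, some genes standing in several pairs. In CAL27, 4 pairs had both genes called in the same direction, 2 had them in opposite directions (USP4 with USP11, and USP16 with USP45), and 12 had 1 gene called. In A431, the 4 pairs with both genes called shared a direction, and 12 had 1 gene called. The other pairs had no call or an untested gene, and pairs of other genes were not counted. Of the pairs called in 1 direction, USP22 with USP51 and USP9X with USP24 in both lines, and USP9X with USP34 in A431, rest on calls lost without 1 library, as given above. The same holds for USP16 with USP45 in CAL27.

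The lines themselves differed in USP levels without inhibitor. CAL27 DMSO against A431 DMSO gave 19 USP genes higher and 18 lower of 46, or 80.4%, beside 58.9% of all genes tested, 29.9% higher and 29% lower. A difference of at least 1.5-fold was called for 19 of the 46 USP genes, beside 40.6% of all genes. The median absolute log2 difference was 0.50 for the USP genes and 0.72 for all genes tested. USP46 had 12.4 and 10.6 CPM in CAL27 DMSO against 52.3 and 53.4 in A431 DMSO (log2 -2.21 ± 0.09, edgeR adjusted p = 1.16e-12). USP4 had 13.4 and 12.7 CPM in CAL27 DMSO against 52.6 and 51 in A431 DMSO (-1.99 ± 0.08, edgeR adjusted p = 1.6e-12). For both genes the lines were far apart and the libraries of a line close together.

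USP51 had 0.111 and 0.151 CPM in CAL27 DMSO against 3.96 and 5.02 in A431 DMSO (-5.06 ± 0.45, edgeR adjusted p = 5.39e-08). USP42, which acts on p53, was higher in CAL27, with 45.2 and 43.7 CPM in CAL27 DMSO against 20.2 and 19 in A431 DMSO (1.18 ± 0.08, edgeR adjusted p = 1.05e-09). So was USP35, with 5.09 and 7.1 CPM in CAL27 DMSO against 1.77 and 2.99 in A431 DMSO (1.37 ± 0.26, edgeR adjusted p = 0.000232). These 3 genes did not overlap between the lines. USP6, a gene of hominoid primates known as an oncogene in bone cysts, had 0.5 and 0.636 CPM in CAL27 DMSO against 0.0348 and 0.155 in A431 DMSO. Its difference of 2.57 ± 1.02 (edgeR adjusted p = 0.0388) was lost without CAL27 DMSO replicate 1 (0.0888) or 2 (0.156) or A431 DMSO replicate 1 (0.176). USP18 and USP20 were higher in CAL27 by 1.02 ± 0.10 and 0.61 ± 0.10, and USP53 stood at -1.09 ± 0.11. These values share their DMSO libraries with the responses above.

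**Figure D4:**
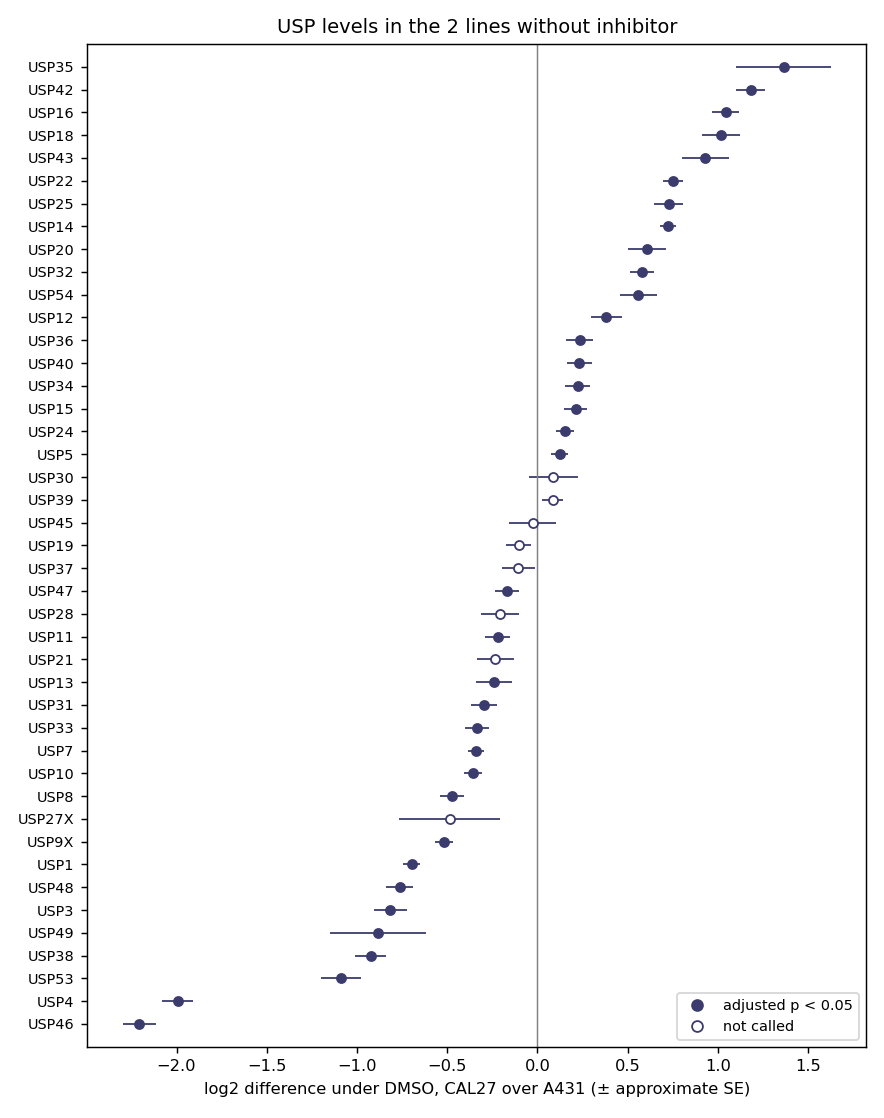
Log2 difference between CAL27 DMSO and A431 DMSO for 43 USP genes, ordered by size, with bars of approximate SE. Filled points passed an adjusted p of 0.05; USP46 and USP4 lie lowest at -2.21 and -1.99, and USP35 and USP42 highest at 1.37 and 1.18.

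Of 33 tested deubiquitinases outside the USP family, 18 rose and 6 fell in CAL27 and 14 rose and 6 fell in A431, with median log2 changes of 0.33 and 0.23, against -0.04 and -0.01 for all genes. These are 72.7% and 60.6% of the list, beside 49.6% and 43.6% of all genes. Changes ran from -1.46 to 3.82 in CAL27 and from -1.65 to 2.15 in A431, and the 4 largest by size were all higher. TNFAIP3, the OTU enzyme A20 that damps NF-kB signalling, rose by 0.35 ± 0.06 in CAL27 and 2.15 ± 0.08 in A431. UCHL1 rose by 1.35 ± 0.23 in CAL27 and 2.03 ± 0.43 in A431. In A431 it was low, with 0.394 and 0.51 CPM under NEDD8i against 0.104 and 0.116 under DMSO. STAMBPL1, an enzyme of the JAMM family, rose by 1.69 ± 0.16 in CAL27 and 1.35 ± 0.17 in A431. OTUD7A, under 1 CPM on average in every group, rose by 3.82 ± 0.79 in CAL27. Of 23 partners and substrates of USP enzymes, 12 rose and 7 fell in CAL27 and 8 rose and 6 fell in A431 (medians 0.18 and 0.02), or 82.6% and 60.9%. Of the 7 ubiquitin and E1 genes, 4 rose and 1 fell in CAL27, and 1 rose and 3 fell in A431, or 71.4% and 57.1%. UBB, a ubiquitin gene, stood at -0.11 ± 0.05 in CAL27 and fell by 0.87 ± 0.05 in A431. Of its last 500 exonic bases, 74% lie in exons of another gene on the other strand, so its counts are uncertain.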

How the data were processed

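The kit, QuantSeq FWD, reads the 3′ ends of transcripts, per the labels' protocols. The deposited values are whole-number counts per gene: reads were aligned to GRCh38 with STAR, per the submitters' processing notes, and counted with featureCounts 2.0.8 over exons of the basic GENCODE 39 annotation, per the file headers. Strand was ignored, both mates of a pair were counted, and reads over several places or genes were dropped, per the file headers, so counts are not independent molecules and genes that overlap others are uncertain.

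From the counts, edgeR 4.0.16 in R 4.3.3 fitted 1 mean per group over all 8 libraries (TMM, filterByExpr, quasi-likelihood test, 4 residual and 12.3 prior degrees of freedom, biological coefficient of variation 0.0852). Benjamini-Hochberg adjustment ran over 18738 genes, with calls at adjusted p under 0.05, and a p given for a library left out is that adjusted p. Symbols came from a gene name table that matched 61415 of 61533 identifiers. The counts of replicates differed beyond sampling noise (chi-square of 6.3 to 13.2 per degree of freedom), so none was a copy. Promoter sequences are RefSeq's. Alternatives used DESeq2 1.42.0, other filters, scalings, thresholds and libraries left out. The fit was also run on counts simulated from its own means and spreads, which checks the code and not whether the model suits these libraries.

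The USP genes, the lists and the naming rule were chosen with earlier results of these data known. The rule gave per-library values for the 10 largest called changes in each line, the 8 largest called differences, the 6 largest called under DMSO, the 5 highest per kb, and relatives called in opposite directions, and values for up to 4 genes of each other list. Partners named beside a USP gene, PSMD14, UCHL5, TP63, KRT17 and the per-library values of USP9X fall outside it and were chosen after their values were seen. Floors of 3 counts cover counting error only. Values of some genes of the other lists are not reported here.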

Additional observations from a re-analysis of the deposited data

Results flagged for a closer look

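The response to NEDD8i differed between the lines for 19 USP genes by the test of that difference, CAL27 change minus A431 change on the log2 scale (edgeR quasi-likelihood test, adjusted p under 0.05). The difference was -4.77 for USP51, whose CAL27 NEDD8i libraries were at 0, -1.47 for USP18, -1.41 for USP20, -0.82 for USP13, -0.76 for USP7, -0.60 for USP32, -0.55 for USP45, -0.50 for USP25, -0.42 for USP14, -0.40 for USP8, -0.37 for USP9X, -0.34 for USP24 and -0.29 for USP40. It was 0.87 for USP53, 0.76 for USP43, 0.49 for USP4, 0.48 for USP36, 0.40 for USP12 and 0.32 for USP39. What sets these responses apart was not tested.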

How the results depend on the processing

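The replicate numbers share only a number: deviations of same-numbered libraries correlated at -0.0303 in CAL27 and 0.00559 in A431. With the replicate number as a block, USP calls were 27 in CAL27, 24 in A431, 21 for the line difference and 35 under DMSO, and the calls lost were USP47 in CAL27 (adjusted p = 0.0586) and, under DMSO, USP13 (0.0628) and USP6 (0.0736). With a change of at least 1.5-fold also required, calls were 8 in CAL27 (4 higher, 4 lower), 4 in A431 (3 and 1), 8 for the difference (2 and 6) and 19 under DMSO (10 and 9). At adjusted p under 0.01, 4 USP genes were lower in A431. With RLE factors, and with a minimum of 1 CPM, 10 were higher for the difference. DESeq2 called 29 in CAL27, 24 in A431, 19 for the difference (without USP40 and USP45) and 35 under DMSO. Leaving out 1 library gave 22 to 29 calls in CAL27, 17 to 24 in A431, 15 to 22 for the difference and 27 to 37 under DMSO. Of 108 calls, 77 kept direction and call under DESeq2, RLE factors, both other filters, counts halved, only the 4 libraries compared, the block and each library left out, 31 were lost under at least 1 of these, and 0 reversed; the stricter thresholds are not in this count. The call of USP51 for the line difference was lost with counts halved (adjusted p = 0.0804). No scaling shifted the median of all genes by more than 0.0368. The order of levels changed between CPM and CPM per kb as given above. The comparison of protein sequences between relatives was not run.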
